A study of Mus musculus with 4 samples.

Results

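Rab GTPases and the proteins that regulate or read them were described at the 3′ ends of mRNA recovered from the CA1 neuropil of mouse hippocampus. The members were the polyA sites whose gene name in the deposited table begins with Rab and a digit, Rabgap, Rabep, Tbc1d, Dennd or Rph3a, or equals Gdi2. This rule took 78 of 9297 sites, 55 of 7202 gene names and 216 of 34672 tags, and it used the names alone and no count.

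All libraries belonged to 1 group of 4 replicates of genotype Camk2a-Cre x Pabpc1- cTag and strain C57BL/6, so the study offers no comparison between conditions here. In cTag-PAPERCLIP, the poly(A)-binding protein Pabpc1 carries a GFP tag once Cre has acted, slices are crosslinked by ultraviolet light, and RNA fragments bound to the tagged protein are sequenced as tags that mark 3′ ends. Cre was under the Camk2a promoter, which limits the tagged protein to excitatory neurons. The neuropil holds the dendrites of CA1 pyramidal neurons beside axons and glia. The study pooled mice within a replicate, and for collection of this material its methods refer to a protocol with adult mice, with no age in weeks given for this assay. Replicates 1 to 4 held 16017, 6609, 5947 and 6099 tags, so tests between them compare pooled libraries and not conditions.

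Rab proteins are small GTPases that mark the identity of membranes. In the GTP-bound state they recruit effectors that move, tether or fuse vesicles. DENN domain proteins switch them on by exchanging GDP for GTP, TBC domain proteins and the Rab3 GAP complex switch them off by speeding GTP hydrolysis, and GDP dissociation inhibitors (GDIs) keep the inactive form soluble. In neurons, Rab3 proteins act on synaptic vesicles, and Rab5 and Rab11 proteins act in the endosomes through which receptors leave and return to the dendritic surface.

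The sequences that follow are the windows around the site with the most tags in the leading genes of each role, shown to place the sites relative to the polyA signal. They were read from GRCm38 (mm10), run 5′ to 3′ on the strand of the gene, and have the signal AATAAA or ATTAAA in capitals.
Rab6b, chr9:103185237-103185266, plus strand: tgttggtcaaacAATAAActgtcctaattc
Rab3c, chr13:110054200-110054229, minus strand: tttgaagattacAATAAAtatctaagagac
Rab15, chr12:76797965-76797994, minus strand: aaatgtttacaaAATAAAgaatatttcaaa
Dennd5a, chr7:109893782-109893811, minus strand: tatggcccacttAATAAAacacctgaaaca
Rph3a, chr5:120940506-120940535, minus strand: gatgtagccaaaAATAAAgtaggaatatcc
Tbc1d9b, chr11:50171994-50172023, plus strand: gctcaatgccttAATAAAtccctgaaagaa
Tbc1d14, chr5:36490613-36490642, minus strand: tggttttATTAAAATAAAgtcatgtaaaat
In these 7 windows the deposited site lay from 5 bases before to 2 bases after the first base of AATAAA. In Tbc1d14 the capitals hold ATTAAA and AATAAA, which overlap.

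Family sites held 96, 44, 30 and 46 tags in replicates 1 to 4, which was 0.599%, 0.666%, 0.504% and 0.754% of the tags of each library (mean 0.631% ± 0.106, SD, n = 4). With totals that leave out 7 sites with over 1% of the tags of any replicate, it was 0.731% ± 0.152. A gene outside the family held 4030, 1, 134 and 99 tags in replicates 1 to 4, which lowers all other shares of replicate 1. The gene shares and limits given below keep the full totals. The 95% Wilson intervals were 0.491% to 0.731%, 0.496% to 0.893%, 0.354% to 0.719% and 0.566% to 1.00%, and all 4 overlapped. Counting error is all that these intervals and the limits for a count of 0 include, since copies made by PCR are not separate molecules. A listed gene with 0 tags in a library could hold up to 0.0187%, 0.0454%, 0.0504% and 0.0492% of the tags of replicates 1 to 4, which is 3 tags of each total.

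A total of 53 family sites were seen in 1 replicate, 10 in a pair of replicates, 11 in 3 replicates and 4 in every replicate. The 25 sites with tags in more than 1 replicate were 32.1% of family sites, beside 34.2% of all sites, and held 73.1% of family tags, beside 77.8% of all tags. Of these family sites, 48 (61.5%, beside 57.2% of all sites) rested on 1 tag. By gene, the median was 2 tags in the family and 2 over all gene names. The family had 17 genes with 1 tag (30.9%, beside 43.7% of all genes) and 4 with at least 10 tags (7.27%, beside 7.40%). Most members were therefore detected without a usable estimate of level.

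Counted by role, the 33 Rab GTPases took 68, 36, 22 and 30 of the family tags in replicates 1 to 4, a mean of 72.8% ± 6.90 (SD, n = 4). The 12 GTPase-activating proteins (GAPs) took 10, 4, 3 and 6 tags (10.6% ± 1.70), and the 4 guanine nucleotide exchange factors (GEFs) of the DENN type took 8, 2, 3 and 4 tags (7.89% ± 2.34). The 5 effectors took 10, 2, 2 and 4 tags (7.58% ± 2.54), and the GDI Gdi2 had 2 tags, both in replicate 4. GTPases held the most tags in every replicate, and the shares of GAPs, GEFs and effectors overlapped across replicates.

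**Figure D1:**
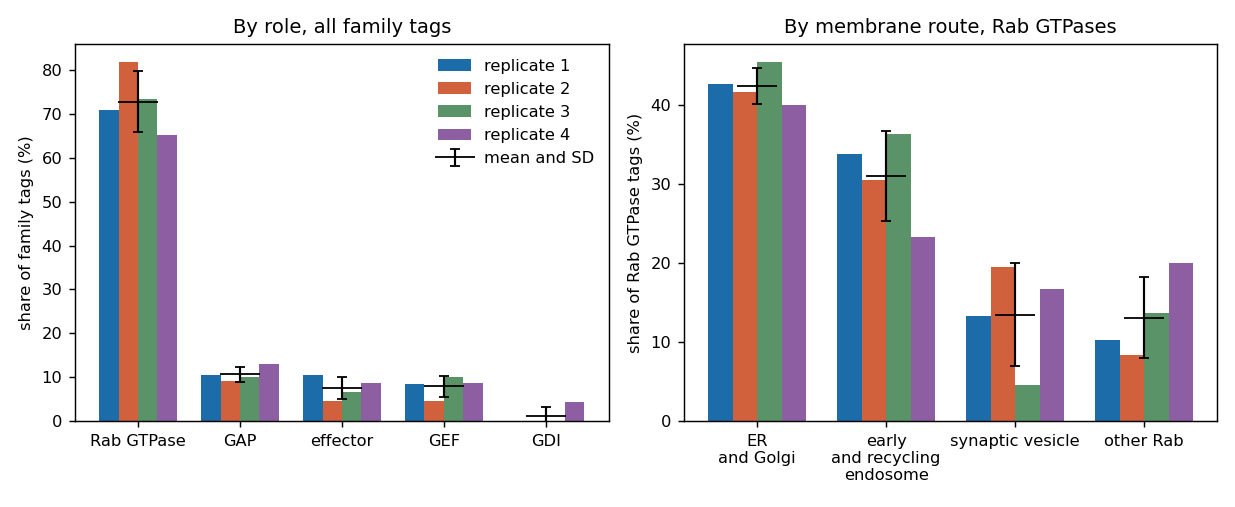
Left, the share of family tags (%) held by each role in replicates 1 to 4; right, the share of Rab GTPase tags (%) held by each membrane route, with the mean and SD over the 4 replicates drawn over the bars. Rab GTPases held 65.2% to 81.8% of family tags in every replicate, and the Rabs of the ER and Golgi held 40.0% to 45.5% of Rab GTPase tags.

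GENCODE vM21 holds 122 protein-coding genes whose names match the rule, of which 55 (45.1%) were listed, beside 29.4% of all protein-coding gene names. By role, 33 of 59 Rab GTPases (55.9%), 5 of 9 effectors (55.6%), 12 of 34 GAPs (35.3%) and 4 of 16 GEFs were listed. Counting sites that lay inside the gene under another name, these became 35 Rab GTPases (59.3%), 5 effectors, 16 GAPs (47.1%) and 5 GEFs (31.2%), beside 31.7% of all. The GAP counts keep Rab3gap1 and Tbc1d10c, whose only listed sites lay past their genes. Among those not listed by name were Rab5a, Rab27a and Rab27b. The name of the table points to tags that overlap peaks called in Camk2a-expressing cells, so a gene that is not listed may lack such a peak, and neither a limit on its share nor the absence of its mRNA follows.

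Rab GTPases were grouped by the membrane on which each is known to act. The 9 Rabs of the ER and Golgi held 29, 15, 10 and 12 tags, a mean of 42.4% ± 2.29 of Rab GTPase tags. The 10 Rabs of early and recycling endosomes held 23, 11, 8 and 7 tags (31.0% ± 5.65), and the 3 synaptic vesicle Rabs held 9, 7, 1 and 5 tags (13.5% ± 6.47). The 11 remaining Rabs held 7, 3, 3 and 6 tags (13.1% ± 5.11). The ER and Golgi group was ahead of the endosome group in all 4 replicates, which rested on Rab6b. Without Rab6b the ER and Golgi Rabs held 13, 3, 7 and 9 tags and were ahead of the endosome group in replicate 4 alone. The synaptic vesicle group and the remaining Rabs changed places between replicates.

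Rab6b, the neuronal form of a Golgi Rab that acts in retrograde transport, was the family gene with the most tags. It had 16, 12, 3 and 3 tags in replicates 1 to 4, or 0.0999%, 0.182%, 0.0504% and 0.0492% of the tags of each library (mean 0.0953% ± 0.0622, SD, n = 4). Replicate 2 was the highest and replicates 3 and 4 the lowest. Summed over the 4 libraries, which weights replicate 1 by its depth, Rab6b held 15.7% of family tags and ranked 92 among all gene names. With 3 tags it was not the leading family gene in replicates 3 and 4, where Rab2a had 4 tags and Rab3c had 5.

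The share of each gene was tested between replicates with Fisher's exact test over all genes with at least 20 tags, with Benjamini-Hochberg adjustment. Over all genes 147 of 211 tested (69.7%) had an adjusted p under 0.05. Rab6b was the only family gene with enough tags to enter, and its share did not pass (Fisher's exact test, p = 0.0776, adjusted p = 0.100), so 0 of 1 family genes were called. At an unadjusted p under 0.05 the count was also 0, but with library totals that leave out sites over 1% of a replicate the unadjusted p of Rab6b was 0.0381 (adjusted p = 0.0563, Fisher's exact test). The test sets the spread between separate pooled libraries against the counting error of single tags and takes tags as independent, which PCR copies are not, so its p-values may be too small. With the minimum lowered to 10 tags, 215 of 533 genes (40.3%) were called and 0 of the 4 family genes that entered, with adjusted p = 0.146 for Rab6b, 0.246 for Rab15, 0.425 for Rab3c and 0.501 for Rab2a by Fisher's exact test. With 11 to 14 tags in the last 3 genes, only large differences could have been detected.

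The other Rabs of the ER and Golgi had fewer tags in all, although Rab2a was ahead of Rab6b in replicate 3 and Rab1a in replicate 4. Rab2a, which acts between ER and Golgi, had 4, 1, 4 and 2 tags (0.0350% ± 0.0227), and was among the 6 family genes with tags in all 4 replicates. Rab1a, which acts in ER to Golgi transport, had 3 tags in replicate 1 and 4 in replicate 4 and 0 in the others. Rab6a, the widely expressed form of Rab6, had 4, 1, 1 and 0 tags. The remaining members, Rab18, Rab2b and Rab43 with 2 tags each and Rab1b and Rab30 with 1 tag each, were near the limit of detection.

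Among the endosomal Rabs, Rab15 had 9, 1, 1 and 0 tags (0.0220% ± 0.0240, SD, n = 4), so that 9 of its 11 tags came from replicate 1 and the mean fell to 0.0106% when replicate 1 was left out. Rab14, which acts between Golgi and endosomes, had 5, 2, 0 and 2 tags. Rab5b, a Rab of early endosomes, had 0, 3, 2 and 2 tags, while the 0 of replicate 1, the deepest library, limits its share there to 0.0187%. Rab11b, a Rab of recycling endosomes, had 3, 1, 1 and 1 tags, and Rab5c had 2, 1, 1 and 1. Their shares lay close together in the 4 libraries but rested on 1 to 3 tags each, too few to call them level. Rab11a had 4 tags, 3 of them in replicate 3, and Rab21 had 4 tags at 4 different sites. Rab22a, Rab31 and Rab4a had 1 tag each.

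The synaptic vesicle Rabs were led by Rab3c. It had 5, 3, 1 and 5 tags, or 0.0312%, 0.0454%, 0.0168% and 0.0820% of each library (mean 0.0439% ± 0.0280, SD, n = 4), and was seen in every replicate. Rab3a, the form best known from presynaptic terminals, had 4, 3, 0 and 0 tags. Rab3b had 1 tag, which lay in an intron. Fewer cells that express a gene and less RNA per cell cannot be told apart in these bulk libraries, here or at any other level given.

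The remaining Rabs were Rab12 and Rab39b with 3 tags each, Rab10, Rab23, Rab24 and Rab28 with 2 each, and Rab34, Rab44, Rab7, Rab8a and Rab8b with 1 each. Rab39b, a neuronal Rab linked to X-linked intellectual disability, had 1, 0, 0 and 2 tags. Rab12 had 1, 0, 1 and 1 tags, the widest recovery in this group. The late endosome Rab, Rab7, and the exocytic Rabs, Rab8a and Rab8b, were each seen in 1 library.

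**Figure D2:**
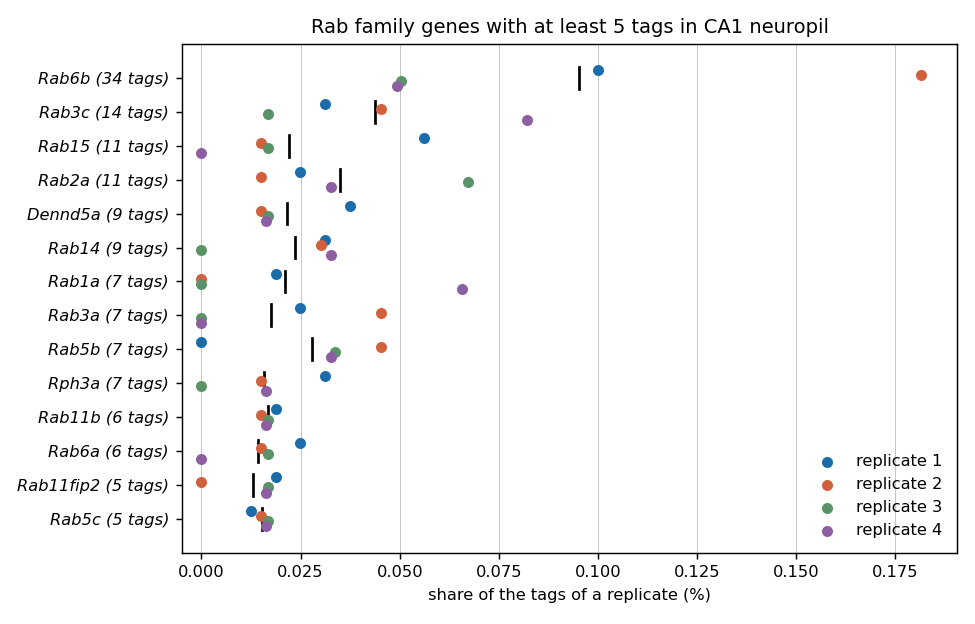
Share of the tags of a replicate (%) for the 14 family genes with at least 5 tags, with 1 point per replicate and a vertical bar at the mean of the 4 replicates. Rab6b spans 0.0492% to 0.182%, and 8 of the other genes have at least 1 replicate at 0.

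Dennd5a led the GEFs. This DENN protein, which acts on Rab39 and binds Rab6, had 6, 1, 1 and 1 tags (0.0375%, 0.0151%, 0.0168% and 0.0164%; mean 0.0215% ± 0.0107, SD, n = 4). Replicate 1 stood above the other 3, and the mean without it was 0.0161%. Dennd4a had 4 tags at 4 sites and was seen in 3 replicates. Dennd1a, a GEF for Rab35, and Dennd6a, a GEF for Rab14, had 2 tags each.

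Effectors were led by Rph3a, rabphilin, which binds Rab3 on synaptic vesicles. It had 5, 1, 0 and 1 tags (0.0312%, 0.0151%, 0 and 0.0164%; mean 0.0157% ± 0.0128). Rab11fip2, which links Rab11 to recycling endosome motors, had 3, 0, 1 and 1 tags. The other effectors, Rab11fip3, Rab11fip4 and the Rab5 effector Rabep1, had 2 tags each.

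No GAP had more than 4 tags. Tbc1d14, a Rab11 binding protein with a role in autophagy, had 2, 1, 0 and 1 tags (0.0110% ± 0.00751), and Tbc1d9b had 3, 1, 0 and 0 tags (0.00847% ± 0.00988), with a mean of 0.00504% without replicate 1. Tbc1d24, an epilepsy gene with a role at presynaptic terminals, had 1 tag in replicate 1 and 1 in replicate 4. Rabgap1l and the Rab1 GAP Tbc1d20 had 2 tags each, in 1 replicate each. Rab3gap1, the catalytic subunit of the Rab3 GAP, had 3 tags at a site far from its gene, described below. Tbc1d10a, Tbc1d10b, Tbc1d10c, Tbc1d15, Tbc1d19 and Tbc1d30 had 1 tag each.

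Close relatives within the family were compared in 7 pairs by an exact sign-flip permutation test over replicates, two-sided, in which 4 replicates cannot give a p below 0.125. Tags mark 3′ ends, so counts were not divided by length, and whether different 3′ ends are recovered alike was not tested. Rab6b exceeded Rab6a in 4 of 4 replicates, by 0.0810% ± 0.0594 of the library (SD of the difference, exact p = 0.125, adjusted p = 0.4375), and by 0.0526% on average without replicate 2. Rab2a exceeded Rab2b in 4 of 4 replicates, by 0.0267% ± 0.0164 (exact p = 0.125, adjusted p = 0.4375). These 2 pairs reached the smallest p the design allows, and no pair had an adjusted p under 0.05.

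In the other pairs the order was not the same in all replicates. Rab3c had more tags than Rab3a over the 4 replicates, 14 against 7, and a higher share in 3 replicates (exact sign-flip permutation test, p = 0.25). A Rab3c tag in replicate 1 lay far past the gene, and at the 3′UTR site of Rab3c alone the counts of 4, 3, 1 and 5 were level with those of Rab3a in replicates 1 and 2 and higher in replicates 3 and 4. Rab5b and Rab5c had 7 and 5 tags, with Rab5b higher in 3 replicates and Rab5c in 1 (exact permutation p = 0.25). Rab11b and Rab11a had 6 and 4 tags and differed by 0.000374% ± 0.0242 on average, which is less than the spread between replicates. Inside their own 3′UTRs the counts were 3, 1, 1 and 1 for Rab11b and 0, 1, 1 and 0 for Rab11a, a mean difference of 0.00878% ± 0.0102. Rab1a and Rab1b had 7 and 1 tags, all but 1 of them at Rab1a, and Rab8a and Rab8b had 1 tag each.

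Seen as positions, 67 of the 78 family sites (85.9%) lay in an annotated 3′UTR, against 76.4% of all other sites, and these sites held 93.5% of family tags against 70.1% of other tags. Introns held 5 sites, 5 lay between genes and 1 lay in a noncoding exon. A total of 35 family sites (44.9%, against 40.2% of other sites) lay within 50 bases upstream of an annotated transcript end, at a median of 25 bases. These 35 sites held 62.5% of family tags, against 43.6% of other tags. Of the 135 family tags at these sites, 33 were at the main site of Rab6b. The tag shares of other sites depended on a few sites. Without the 7 sites that held over 1% of the tags of any replicate, other tags were in 3′UTRs at 82.6% and at transcript ends at 50.3%.

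The distance from the end of the coding sequence to the site, counted over exon, gives the 3′UTR length each site implies. Its median over the 67 sites was 1447 bases (quartiles 770.5 and 2413.5), against 985 bases for other 3′UTR sites, and 25 sites (37.3%, against 26.0%) implied over 2 kb. With each site weighted by its tags the median was 2042 bases, against 1055 bases for the rest. The family value includes the 33 tags of Rab6b at 4008 bases. Rab30 had the longest, 8574 bases, on 1 tag. Rab3c followed with 7603 bases at a site with 13 tags (4, 3, 1 and 5) found in every replicate. The shortest was 99 bases, at a Rab14 site with 1 tag. Among sites with at least 7 tags, the shortest were Rab3a at 502 bases and Rab1a at 598 bases, each with 7 tags.

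**Figure D3:**
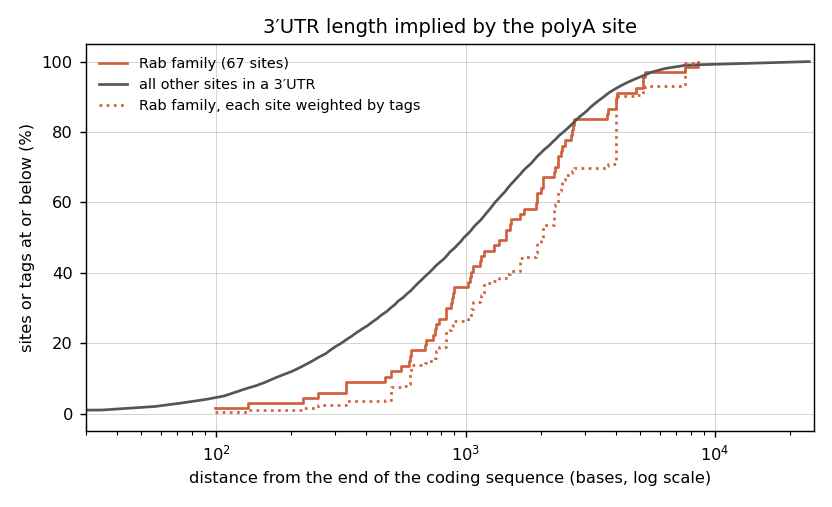
Cumulative share (%) of sites, or of tags for the dotted line, at or below each distance from the end of the coding sequence in bases (log scale), for the 67 family sites in a 3′UTR and for all other 3′UTR sites of the table. The family lines lie to the right of the line for other sites through most of their range, with medians of 1447 bases by site and 2042 bases by tag against 985 and 1055 bases for other sites.

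Leading genes used sites at a wide range of 3′UTR lengths. The main site of Rab6b (chr9:103185251, plus strand) lay 4008 bases into the 3′UTR and 25 bases upstream of the annotated end, with 15, 12, 3 and 3 tags. The proximal site of Rab6b, at 1937 bases, had 1 tag, in replicate 1. Rab15 lay at 2261 bases, Rab5b at 2337 bases, Tbc1d14 at 2424 bases, Rab11fip2 at 4014 bases and Rph3a at 1650 bases, each within 25 bases upstream of an annotated end. Dennd5a had its only site at 831 bases, 24 bases upstream of an annotated end, and Tbc1d9b had its only site at 604 bases. Rab2a had its tags at 1073 and 1181 bases.

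There were 17 family genes with more than 1 site (30.9% of family genes, against 21.7% of all genes). Summed over them, 63.8%, 64.0%, 52.9% and 50% of tags in replicates 1 to 4 were at the most distal site of the gene (57.7% ± 7.28, SD, n = 4), beside 47.4% ± 2.88 over all 1560 genes with more than 1 site. Without Rab6b, with 33 of its 34 tags at the distal site, it was 41.0% ± 7.39. By gene, 4 had more distal tags, 5 had more tags at other sites and 8 had as many at each. The most distal site by name lay past the annotated gene in Rab3c, Gdi2, Rab11a and Dennd4a, so that the 13 tags at the annotated end of Rab3c counted as not distal. Over sites inside the 3′UTR of their own gene, a choice made after the data were seen, 12 family genes had 68.4% ± 7.79 of tags at the most distal site (50.7% ± 7.31 without Rab6b), beside 57.9% ± 6.44 over 806 genes.

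Use of the most distal site was tested between replicates with Fisher's exact test over all genes with more than 1 site and at least 20 tags, and 13 of 101 genes (12.9%) were called. Rab6b was again the only family gene with enough tags, and its adjusted p was 1 by Fisher's exact test. Rab2a, Rab3c and Rab6b entered with a minimum of 10 tags, each with p = 1 by Fisher's exact test. At that lower threshold the whole table had 11 called genes among the 256 that entered, so 0 called of 3 does not set the family apart. The tests of these 3 genes could not decide whether site use shifted between libraries. With 33 of 34 tags of Rab6b and 1 of 14 of Rab3c at the most distal site, 1 tag was left to vary in each. No placement of that tag gives a p under 0.05 by Fisher's exact test. Rab2a, with 7 of 11 tags at its distal site, could at most have shown a large shift.

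Rab2a was the only family gene with 2 sites each found in more than 1 replicate. Both sites lay in its 3′UTR, 108 bases apart, and are shown because each has its own AATAAA (capitals).
Rab2a proximal, chr4:8607552-8607581, plus strand: gggggatatgaaAATAAAtctaccagatgg
Rab2a distal, chr4:8607676-8607705, plus strand: atagcagtgcaaAATAAActcctatgtaca
The proximal site, at 1073 bases of 3′UTR, had 2, 0, 1 and 1 tags, and the distal site, at 1181 bases, had 2, 1, 3 and 1 tags. The distal site was ahead in 2 replicates and level in the other two. Among other genes with several sites, Rab14 had 7 of 9 tags at 2042 bases and 1 each at 740 and 99 bases, and Rab6a had 5 of 6 tags at 1927 bases and 1 at 838 bases. Rab11b went the other way, with 5 of 6 tags at 1051 bases and 1 at 5156 bases. Rab5c had 4 of 5 tags at 761 bases and 1 at 875 bases.

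**Figure D4:**
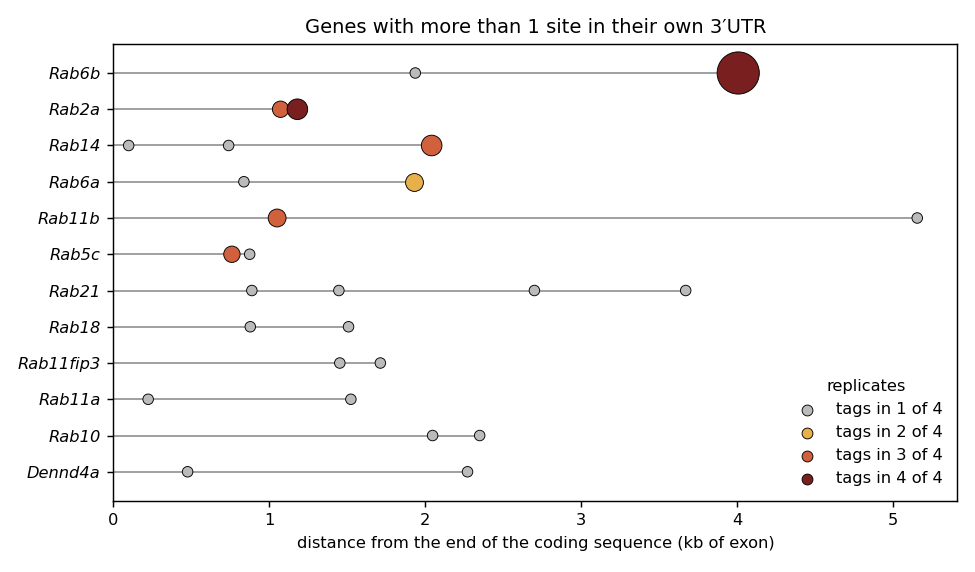
Sites of the 12 family genes with more than 1 site in their own 3′UTR, at their distance from the end of the coding sequence in kb of exon; the area of a point grows with its tags and its colour gives the number of replicates with tags. Rab6b carries 33 tags at its distal site, Rab11b has 5 of 6 tags at its proximal site, and Rab2a has 2 sites seen in more than 1 replicate.

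The polyA signal AATAAA or ATTAAA was found on the strand of the site within 50 bases on either side of 56 of 78 family sites (71.8%, 95% Wilson interval 61.0% to 80.6%), against 78.1% of other sites. Among the 25 family sites seen in more than 1 replicate the share was 84.0%, and among the 53 seen in 1 replicate it was 66.0%, beside 84.3% and 74.9% over all sites of the table. At 55 of these sites the place of the signal was read out: its first base lay at a median of 1 base upstream of the deposited position, and 54 lay from 15 bases upstream to 10 bases downstream, with AATAAA at 43 sites and ATTAAA at 12. The letters TGTA, the core of Pumilio motifs, occurred on the same strand within 100 bases upstream of 62.8% of family sites and 59.1% of other sites.

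Of the 22 sites without either signal, 12 (54.5%, against 43.2% of other such sites) had a variant hexamer in the window. The variants searched were AGTAAA and TATAAA, with CATAAA and GATAAA beside them, as well as AATATA and also AATACA. Sites with a variant included Rab5b with 7 tags and Rab39b with 3, whose windows are shown with AGTAAA in capitals, beside the main site of Rab11b, which had 5 tags in 3 replicates and none of these letters.
Rab5b, chr10:128677178-128677207, minus strand: gtatttaatgtaAGTAAAaaaggaaaaaag
Rab39b, chrX:75572061-75572090, minus strand: atgcttgtatttAGTAAAatggttgatcat
Rab11b, chr17:33746603-33746632, minus strand: actaaaatgtataagccacttctgtacaga
Rab5b had an annotated transcript end 21 bases downstream of the site and Rab39b 29 bases, whereas the Rab11b site lay 4136 bases before the annotated end of its gene. A window without these letters says only that they are not there.

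The gene name in the table did not always match the gene at the site. A total of 71 of 78 family sites (91.0%, against 76.5% of all sites) lay inside the vM21 gene of that name on the same strand. The other 7, with 10 tags, lay outside it. The Rab3gap1 site had 1, 1, 1 and 0 tags and lay 95.1 kb past the end of Rab3gap1, opposite Zranb3, so those tags do not measure the 3′ end annotated for Rab3gap1. A Rab3c site with 1 tag lay 1466 kb past its gene, a Gdi2 site with 1 tag 45.9 kb past, and a Rab11a site with 2 tags 6.61 kb past. Sites of Tbc1d10c and Dennd4a with 1 tag each lay 6.08 kb and 92 bases past their genes, and a Rab43 site with 1 tag lay in the 3′UTR of Isy1. How tags that match several places in the genome were treated is not given in the sources used here, so counts of close relatives could be shared where their sequences match.

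Genes of the Rab pathway outside the name rule were counted on a list of 34, among them the Rab3 effectors Rims1 to Rims3, the Rab3 GEF Madd, Rab escort proteins and Rab5 effectors. Of these, 15 were listed, with 31 tags in all (0.108% ± 0.0893 of each library, SD, n = 4), and none had 10 tags. Rims1, an active zone scaffold, had the most, with 3, 0, 1 and 2 tags. Rabgef1, a GEF for Rab5, had 1, 0, 2 and 1 tags. No gene of the list had enough tags for either test.

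Markers of other cell types were present beside those of excitatory neurons, and their part in the values above was not tested. Excitatory neuron markers were listed for 8 of 10 genes, with 0.182% to 0.344% of tags per replicate, and the 2 not listed by name were Camk2a and Slc17a7. Camk2a held 215 tags at 4 sites that carried another name, and with these the excitatory sum was 0.471% to 1.27%, highest in replicate 1. All 7 astrocyte markers (0.0984% to 0.318%) and all 6 oligodendrocyte markers (0.131% to 0.545%) were listed, against 4 of 7 interneuron markers (0.0303% to 0.246%), 2 of 6 microglia markers (0 to 0.0187%) and 1 of 3 endothelial markers (0 to 0.00624%). The oligodendrocyte sum was highest in replicate 2, as the Rab6b share was. The astrocyte sum and the excitatory sum with Camk2a were both highest in replicate 1, as the Rab15 and Dennd5a shares were. The interneuron sum and the excitatory sum without Camk2a were highest in replicate 4, as the shares of Rab3c and of the whole family were. Npy held 22 of the 33 interneuron tags, and without it the interneuron sum was 0.0250% to 0.0492%. The defining genes at 0 were Gad2, Slc32a1 and Vip for interneurons, Cx3cr1, Csf1r, P2ry12 and C1qb for microglia, and Cldn5 and Pecam1 for endothelium.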

How the data were processed

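The authors deposited tag counts, whole numbers that are not normalized, per 1-base polyA site with a gene name, for 4 replicates of 1 group. The table's name points to tags that overlap peaks of Camk2a-expressing cells. The submitters' processing notes name cutadapt, Novoalign and mm10, and the study's methods name CTK for clustering tags into sites. Treatment of duplicate tags and tags with several matches, and how the 1-base position was set, are not given in the sources used here.

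Members, roles, routes and gene lists were chosen with earlier results of these data known. Shares are in percent of each replicate's tags (5947 to 16017 per replicate), as mean ± SD over replicates, which pool mice, so the tests compare libraries. Sites were annotated with GENCODE vM21 and GRCm38. Fisher's exact test (Freeman-Halton) compared a gene's tags with all other tags, or distal with other sites, over replicates; 2 genes with over 400 tags took a chi-square test. All genes with at least 20 tags were tested with Benjamini-Hochberg adjustment, and a gene was called at an adjusted p under 0.05. The test was checked on simulated tags drawn as independent counts. That setting holds no PCR copies and no added spread between libraries, so the check does not cover these. Relatives were compared by an exact sign-flip test.

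Genes named by rule had at least 10 tags, an adjusted p under 0.05, 2 sites each seen in more than 1 replicate, or the most tags in their role. Other members were named after their values were seen, so that all were accounted for. An item that the name rule covers is not reported here. Alternatives were other minimums, totals, windows, site filters, names, a chi-square test, and leaving out each replicate. Counts inside own 3′UTRs, routes without Rab6b, relatives without a replicate, other tags without the largest sites, marker sums with Camk2a or without Npy, and coverage under any name were added after seeing the data. Python 3.11.15, numpy 2.4.6, scipy 1.17.1, pandas 2.3.3, pysam 0.24.0 and matplotlib 3.10.9 were used.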

Additional observations from a re-analysis of the deposited data

Results flagged for a closer look

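In 19 measures with 4 replicates each, the highest or lowest replicate was compared with the others by the ratio of its gap to the whole range. For continuous values chance passes the 95% limit of Dixon's test in about 1 of 20 such groups (0.95 expected here), and 2 measures passed it, both resting on low counts that tie between replicates. The share of Dennd5a had a ratio of 0.925, because replicate 1 held 6 tags (0.0375% of its library) and each other replicate 1 tag. The GDI share of family tags had a ratio of 1, because both tags of Gdi2 were in replicate 4, and it was 0 in the other replicates.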

How the results depend on the processing

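Of 65 alternatives, 47 stayed within 1 SD of the main value (counts within 1.5 times, shares of sites within the Wilson interval) and 18 went past that. No family gene was called where 1 entered a test, but for distal site use the counts of Rab6b could not have given a call. None entered for tag shares at 50 tags or without replicate 1. For distal site use none entered without replicate 1 or over sites seen in more than 1 replicate. The GDI share is 0 without replicate 4 and over sites seen in more than 1 replicate. The family's share of tags ranged from 0.590% to 0.673% when each replicate was left out, and was 0.581% over sites seen in more than 1 replicate. Sites seen in more than 1 replicate fell from 25 to 7 when a site needed 2 tags in a replicate, to 4 when all replicates were required, and to 17 to 23 with a replicate left out. Genes whose share differed between replicates went from 147 of 211 tested to 48 of 56 (85.7%) at a minimum of 50 tags and to 83 to 108 with a replicate left out (84 of 112, 75%, without replicate 1, where Rab6b fell under the minimum, and 83 of 137, 60.6%, without replicate 2), since fewer genes entered. The adjusted p of Rab6b ranged from 0.104 to 0.483 over the replicates left out and was 0.0563 with totals that leave out sites over 1% of a replicate. Genes whose distal site use differed went from 13 of 101 to 5 to 7 with a replicate left out (5 of 45, 7 of 65, 6 of 72 and 6 of 69 without replicates 1 to 4). The distal share of 57.7% became 68.8% over sites seen in more than 1 replicate (Rab2a alone), 68.4% over sites within 10 kb, 68.4% over sites in their own 3′UTR (added after seeing the data) and 41.0% without Rab6b, and ranged from 52.6% to 64.9% with a replicate left out. The polyA signal share of 71.8% became 19.2% in the 50 bases upstream alone, where the window leaves out signals that end past the site, 55.1% with AATAAA alone and 84.0% over sites seen in more than 1 replicate. Over those sites the share of GAPs was 7.60% and that of GEFs 4.88%. Depth limits all but the leading genes, since 17 genes rested on 1 tag. No paired analysis was possible because all 4 libraries belong to 1 group, which leaves no groups to pair by replicate number.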

Other observations

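A further 9 sites with 16 tags lay inside 8 genes of the Rab family, on the same strand, but carried another name in the table, which for 7 of them was a microRNA name. Of these genes, 7 had no site under their own name. Rabgap1, a TBC domain GAP, had a 3′UTR site named Gpr21 (chromosome 2, position 37566419, plus strand of GRCm38) with 1 tag in each of the 4 replicates. Rab35, a Rab of the plasma membrane and endosomes and the target of Dennd1a, had 3′UTR sites named Mir7030 at 1379 and 1956 bases, with 0, 1, 0 and 1 tags and 1, 0, 1 and 0 tags. Together the Rab35 sites therefore had 1 tag in every replicate, a recovery matched by 6 genes under their own names.

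The other such sites were each seen in 1 replicate. Rabgap1l had 2 tags in replicate 1 at a 3′UTR site named Mir1927, and Tbc1d16 had 2 tags in replicate 2 at a site named Mir6934. Rab40b, Tbc1d22b, Dennd1b and Rab3gap2 had 1 tag each, the last being the regulatory subunit of the Rab3 GAP. With these sites named by the annotated gene, and sites outside the family's genes dropped, the family's share of tags was 0.650% ± 0.117 (SD, n = 4), beside 0.631% ± 0.106 by the names in the table.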
